A study of Mus musculus with 8 samples.

Results

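The genes of Polycomb repressive complex 2 (PRC2) were followed in E15.5 mouse germ cells with and without Snf5. They were chosen by name, and the 10 members are Ezh1, Ezh2, Eed, Suz12, Rbbp4, Rbbp7, Jarid2, Mtf2, Phf1 and Phf19, out of 23694 named genes in the female table and 23409 in the male table. Each member had a single row in each table, and all 10 passed the filter of a mean of at least 1 FPKM in both sexes (11529 genes passed in females and 12279 in males). FPKM is the number of sequenced fragments on a gene, scaled to the length of its transcript and to the size of the library. The 8 libraries were 2 replicates of control and 2 of Snf5 CKO in each sex. The sample labels give the strain as C57BL/6, whereas the methods of the study describe a mixed background of C57BL/6, 129/Sv and ICR. Germ cells of all groups were sorted on the Oct4-EGFP transgene. Snf5 CKO germ cells were Snf5 fx/Δ and carried TNAP-Cre, a Cre knocked into the Alpl locus that recombines in primordial germ cells. Controls were a mixture of Snf5 fx/+, Snf5 fx/Δ, and Snf5 fx/+ with TNAP-Cre, so part of them carried 1 deleted allele or Cre. Per the study, female libraries and male controls were pooled from more than 1 embryo, whereas each male Snf5 CKO sort came from 1 embryo. The part of this difference in the male values was not tested. From these RNA-Seq data the study estimated that Cre recombination was incomplete in both sexes, and less complete in females than in males.

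PRC2 is the enzyme complex that methylates lysine 27 of histone H3 (H3K27), a mark of repressed developmental genes. Its core holds a methyltransferase, EZH1 or EZH2, with EED, SUZ12 and a histone-binding protein, RBBP4 or RBBP7. A Polycomb-like protein (MTF2, PHF1 or PHF19) or JARID2 with AEBP2 joins the core and helps to bring it to chromatin. EZH2 is typical of dividing cells and EZH1 of cells that have left the cell cycle. SWI/SNF complexes, of which SNF5 is a core subunit, are known to oppose Polycomb complexes at chromatin.

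The targeted gene was lower in every Snf5 CKO library than in every control of its sex. Smarcb1, the symbol of Snf5 in the tables, ranged from 22.3 to 23.4 FPKM in female controls and from 2.47 to 4.24 FPKM in female Snf5 CKO. In males the ranges were 141 to 167 FPKM and 8.73 to 10.1 FPKM. These values cover the whole gene, whereas Cre deletes exon 1. The tables hold no counts, so the absolute depth is unknown. The most frequent ratio among FPKM values under 0.1 gave a depth relative to control replicate 1 of 1.91, 1.24 and 2.45 for female control replicate 2 and Snf5 CKO replicates 1 and 2. In males it was 1.21 and 1.46 for Snf5 CKO, and either 0.953 or 1.91 for control replicate 2. Across all tested genes 61.6% differed between Snf5 CKO and control at an adjusted p under 0.05 in females, and 46.3% in males, so a change in a single gene is common in these data. In males 2580 genes were higher and 3109 lower, a split that becomes 1402 and 2638 with each library rescaled to a common sum. The FPKM of all loci summed to 682745 and 1367712 in male control replicates 1 and 2, and to 692103 and 1554757 in male Snf5 CKO. In females the sums were 1029097 and 1093897 in control and 673741 and 1026725 in Snf5 CKO. Why these sums differ was not tested.

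The balance of the 2 methyltransferase genes differed between Snf5 CKO and control in both sexes, with less Ezh1 and, in males, more Ezh2. Ezh1 lies on chromosome 11, minus strand, from 101191115 to 101226463 of mm10, and Ezh2 on chromosome 6, minus strand, from 47530274 to 47606604 in the female table and to 47595044 in the male table. Their promoters are shown because the genes moved in opposite directions. Each run is 250 bases before and 50 bases after the RefSeq start on GRCm38.p6, and capitals mark the motifs that were searched on both strands (the CCAAT box, and the E2F words TTTCGCGC, TTTGGCGC and TTCCCGCC; no match overlaps another). The Ezh1 run is chr11:101226414-101226713 and the Ezh2 run is chr6:47594981-47595280, both on the minus strand.
Ezh1: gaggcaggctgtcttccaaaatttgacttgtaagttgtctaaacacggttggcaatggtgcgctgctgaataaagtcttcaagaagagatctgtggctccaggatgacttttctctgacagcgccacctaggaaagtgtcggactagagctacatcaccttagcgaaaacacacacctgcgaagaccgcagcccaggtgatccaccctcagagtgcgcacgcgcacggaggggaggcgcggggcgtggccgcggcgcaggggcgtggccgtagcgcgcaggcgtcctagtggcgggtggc
Ezh2: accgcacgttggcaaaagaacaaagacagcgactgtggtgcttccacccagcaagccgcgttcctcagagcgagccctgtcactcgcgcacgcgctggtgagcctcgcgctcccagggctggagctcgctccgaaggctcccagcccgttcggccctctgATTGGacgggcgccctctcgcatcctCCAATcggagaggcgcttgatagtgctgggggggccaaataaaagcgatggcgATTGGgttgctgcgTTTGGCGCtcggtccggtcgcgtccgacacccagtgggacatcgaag

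The Ezh2 promoter held 3 CCAAT boxes, of which 2 are read as ATTGG on the printed strand, and 1 E2F word, TTTGGCGC, that begins 3 bases after the start. Of all 32851 mouse promoter windows of this length, 0.514% hold that word, 2.96% hold any of the 3 E2F words, and 3.37% hold 3 or more CCAAT boxes. The Ezh1 window held none of these letters. Among the 12 windows of the 10 members, that of Ezh2 was the only one with an E2F word, and 8 windows held a CCAAT box, against 37.4% of all windows. These are matches of letters and say nothing of binding.

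Ezh1 was lower in Snf5 CKO in both sexes. Female controls held 34.4 and 29.7 FPKM and female Snf5 CKO libraries 14.5 and 10.1 FPKM. The groups did not overlap, and the log2 fold change was -1.33 (standard error 0.22, adjusted p = 0.0020 from limma). In males it was at 93.0 and 63.5 FPKM in control and at 10.3 and 8.58 FPKM in Snf5 CKO, so both Snf5 CKO libraries lay far below the controls. The male log2 fold change was -2.90 (standard error 0.24, adjusted p = 0.0023), a mean in Snf5 CKO of 0.121 times that of control. Only 1.04% of the tested male genes had a lower log2 fold change, and 14.1% of the female ones.

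Ezh2 was higher in Snf5 CKO males. It was at 20.9 and 21.6 FPKM in control and at 52.8 and 55.5 FPKM in Snf5 CKO, with no overlap and little spread within a group. Its log2 fold change was 1.31 (standard error 0.16, adjusted p = 0.0039). In females Ezh2 was at 50.5 and 49.5 FPKM in control and at 69.7 and 63.1 FPKM in Snf5 CKO. The female groups did not overlap either, but the log2 fold change of 0.40 did not pass the test (95% interval 0.01 to 0.79, adjusted p = 0.071). Replicates 1 and 2 carry the names of different sequencing runs in the sample labels, and with the replicate number as a block the same female difference had an adjusted p of 0.0064.

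**Figure D1:**
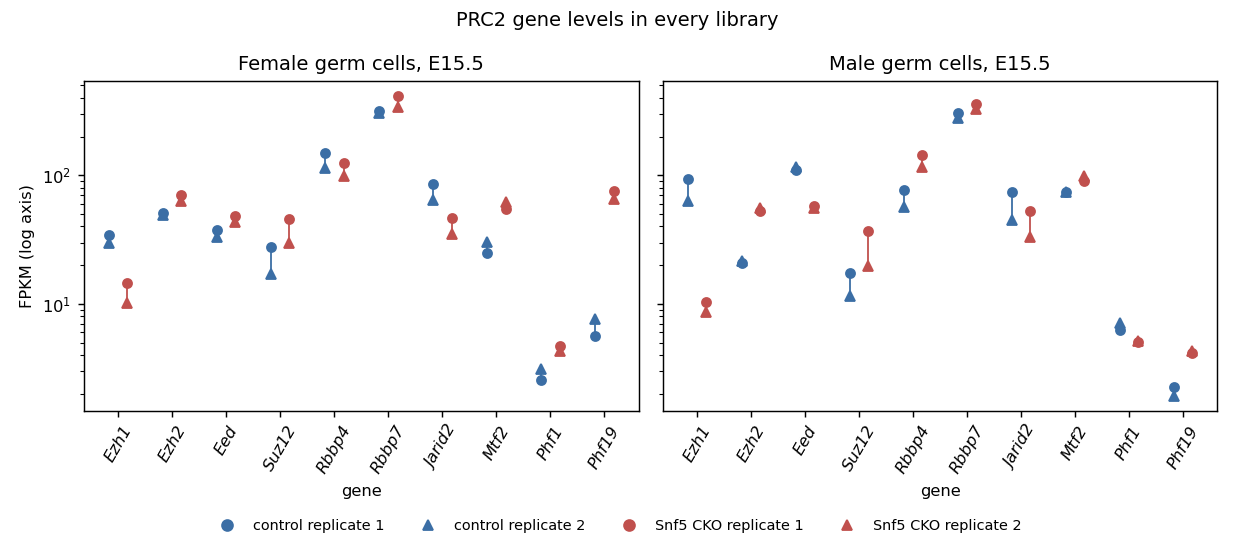
FPKM of the 10 PRC2 genes in each library, on a log axis, for female (left) and male (right) germ cells, with control in blue, Snf5 CKO in red, replicate 1 as circles and replicate 2 as triangles. Ezh1 fell to between 8.58 and 14.5 FPKM in the Snf5 CKO libraries of both sexes, and Phf19 reached 65.6 and 75.1 FPKM in female Snf5 CKO alone.

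The ratio of Ezh2 to Ezh1 within a library does not depend on how that library was scaled. Across the 2 tables, which were normalized separately, it is set side by side only as a description. The Ezh2 row spans 76.3 kb in the female table and 64.8 kb in the male table. What this difference does to the ratio was not tested. In female controls Ezh2 was at 1.47 and 1.66 times the FPKM of Ezh1, and in male controls at 0.224 and 0.341 times. Ezh2 thus exceeded Ezh1 in both female control libraries, and Ezh1 exceeded Ezh2 in both male ones. In Snf5 CKO the ratio was 4.81 and 6.23 in females and 5.10 and 6.47 in males. The ranges of the Snf5 CKO libraries of the 2 sexes overlapped, whereas those of the controls lay apart. On the log2 scale the ratio differed between Snf5 CKO and control by 1.81 in females and by 4.38 in males, with a pooled SD between replicates of 0.207 and 0.348. The exact two-sided permutation p was 0.333 in each case, the smallest that 2 libraries against 2 allow. Each SD rests on 2 libraries a group.

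Eed and Suz12 encode the obligate partners of the methyltransferase: EED reads the methyl mark and SUZ12 is the scaffold. Eed (chromosome 7, minus strand, from 89954654 to 89980976) was lower in Snf5 CKO males, at 109.6 and 117 FPKM in control and at 57.5 and 55.4 FPKM in Snf5 CKO. The groups stood apart, and the log2 fold change was -0.99 (standard error 0.16, adjusted p = 0.0085). The adjusted p was 0.055 without male control replicate 2. In females Eed was at 37.7 and 32.9 FPKM in control and at 47.9 and 43.3 FPKM in Snf5 CKO, the opposite order without overlap. The female log2 fold change of 0.36 did not pass (95% interval -0.05 to 0.77, adjusted p = 0.11), and had an adjusted p of 0.011 with the replicate block.

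Suz12 (chromosome 11, plus strand, from 79993106 to 80034203 in the female table) stood above control in all Snf5 CKO libraries without passing the test. It was at 27.9 and 17.1 FPKM in female controls and at 45.6 and 29.7 FPKM in female Snf5 CKO. Male controls held 17.3 and 11.5 FPKM and male Snf5 CKO libraries 37.2 and 19.8 FPKM. In all 4 groups replicate 2 lay below replicate 1. The log2 fold change was 0.73 in females (95% interval 0.02 to 1.43, adjusted p = 0.068) and 0.90 in males (95% interval -0.04 to 1.83, adjusted p = 0.10). Within replicate 1 and replicate 2 taken singly, the difference on the log2(FPKM + 1) scale was 0.69 and 0.76 in females and 1.06 and 0.73 in males. With the replicate block the adjusted p was 0.00082 in females and 0.00093 in males. When 1 library was dropped, the female log2 fold change lay between 0.39 (control replicate 2 dropped) and 1.07 (control replicate 1 dropped). The male one lay between 0.46 (Snf5 CKO replicate 1 dropped) and 1.34 (Snf5 CKO replicate 2 dropped). Such a fit leaves 1 group with a single replicate, and replicate 2 was the lower one in all 4 groups. These fits therefore cannot decide whether Suz12 changed.

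Rbbp4 and Rbbp7 encode closely related histone-binding proteins that PRC2 shares with other chromatin complexes, among them NuRD. Rbbp4 (chromosome 4, minus strand, from 129287621 to 129335370 in the male table) was higher in Snf5 CKO males, at 76.9 and 57.0 FPKM in control and at 143 and 115 FPKM in Snf5 CKO. Its male log2 fold change was 0.95 (standard error 0.23, adjusted p = 0.026). The adjusted p was 0.10 without male Snf5 CKO replicate 1, 0.14 without male control replicate 2, and 0.15 with each library rescaled to a common sum. In females Rbbp4 was at 149 and 113 FPKM in control and at 124 and 99.1 FPKM in Snf5 CKO, and these groups overlapped. The female log2 fold change was -0.22 (95% interval -0.75 to 0.30, adjusted p = 0.40), with an adjusted p of 0.037 under the replicate block.

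Rbbp7 was the most abundant member in every library. It was at 316 and 303 FPKM in female controls, 414 and 337 FPKM in female Snf5 CKO, 306 and 279 FPKM in male controls and 357 and 326 FPKM in male Snf5 CKO. The log2 fold change was 0.27 in females (95% interval -0.26 to 0.81, adjusted p = 0.32) and 0.22 in males (95% interval -0.33 to 0.77, adjusted p = 0.44). With the replicate block the adjusted p was 0.025 and 0.0078. The value of 414 FPKM is one that the authors' program marked as a failed estimate, and without that library the female log2 fold change was 0.13. The row of Rbbp7 runs over 946.9 kb of the X chromosome in the female table, whereas the GENCODE gene spans 18.7 kb and 5 other coding genes (Ctps2, Reps2, S100g, Syap1 and Txlng) lie inside the row. How much of the Rbbp7 value comes from other transcripts of that span was not tested. The row of Rbbp4 is also longer than the gene, at 59.4 kb in females and 47.8 kb in males against 28.3 kb. It overlaps 2 other coding genes in the female table and 1 in the male table. The rows of Mtf2 and Phf1 each overlap 1 other coding gene in both tables. What these overlaps do to the values was not tested.

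Among the Polycomb-like genes, Phf19 had the largest rise of all members in females. Phf19 (chromosome 2, minus strand, from 34893755 to 34914057 in the female table) was at 5.59 and 7.66 FPKM in female controls and at 75.1 and 65.6 FPKM in female Snf5 CKO. The mean was 10.6 times that of control, the log2 fold change was 3.24 (standard error 0.20, adjusted p = 0.00010), and 99.0% of the tested female genes had a lower one. In males Phf19 was at 2.25 and 1.93 FPKM in control and at 4.13 and 4.29 FPKM in Snf5 CKO, higher without overlap but at a low level. The male log2 fold change was 0.75 (standard error 0.18, adjusted p = 0.023), and its adjusted p lay between 0.066 and 0.12 with each male library left out in turn and was 0.23 with a common sum.

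Mtf2 (chromosome 5, plus strand, from 108065633 to 108109361 in the female table), the most abundant Polycomb-like gene in 6 of the 8 libraries, was higher in Snf5 CKO females. It was at 24.9 and 30.3 FPKM in female controls and at 55.1 and 62.5 FPKM in female Snf5 CKO, and the log2 fold change was 1.07 (standard error 0.18, adjusted p = 0.0024). In males it was at 74.3 FPKM in both controls and at 90.1 and 98.4 FPKM in Snf5 CKO. The male groups did not overlap, and the log2 fold change of 0.34 did not pass (95% interval -0.09 to 0.76, adjusted p = 0.15; 0.0042 with the replicate block). In female Snf5 CKO the FPKM of Mtf2 was 0.733 and 0.952 times that of Phf19, against 4.46 and 3.95 times in female controls. In males Mtf2 stayed far above Phf19, at 33.0 and 38.5 times in control and 21.8 and 22.9 times in Snf5 CKO.

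Phf1 (chromosome 17, plus strand, from 26932944 to 26937908 in the female table) was low in every library. It was at 2.54 and 3.11 FPKM in female controls and at 4.68 and 4.32 FPKM in female Snf5 CKO, and at 6.28 and 7.09 FPKM in male controls and 5.08 and 5.13 FPKM in male Snf5 CKO. The Snf5 CKO libraries were above control in females and below control in males. Neither difference passed: the log2 fold change was 0.53 in females (95% interval 0.07 to 0.99, adjusted p = 0.0502) and -0.33 in males (95% interval -0.80 to 0.14, adjusted p = 0.20). In females the adjusted p was 0.027 with the replicate block, 0.021 with the median of ratios, 0.043 without the trend and 0.0498 with rows of a single gene name.

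Jarid2 (chromosome 13, plus strand, from 44730774 to 44921643 in the female table), whose protein marks the other form of PRC2, was lower in Snf5 CKO females. It was at 86.0 and 63.7 FPKM in control and at 46.6 and 34.7 FPKM in Snf5 CKO, and the log2 fold change was -0.86 (standard error 0.23, adjusted p = 0.015). The adjusted p was 0.057 without female control replicate 1 and 0.076 without female Snf5 CKO replicate 2. In males it was at 74.6 and 45.2 FPKM in control and at 52.4 and 32.8 FPKM in Snf5 CKO, and the groups overlapped. The male log2 fold change was -0.48 (95% interval -1.35 to 0.40, adjusted p = 0.30). Replicate 2 was lower in both male groups, the difference was -0.50 within replicate 1 and -0.45 within replicate 2, and with the replicate block the adjusted p was 0.0012.

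**Figure D2:**
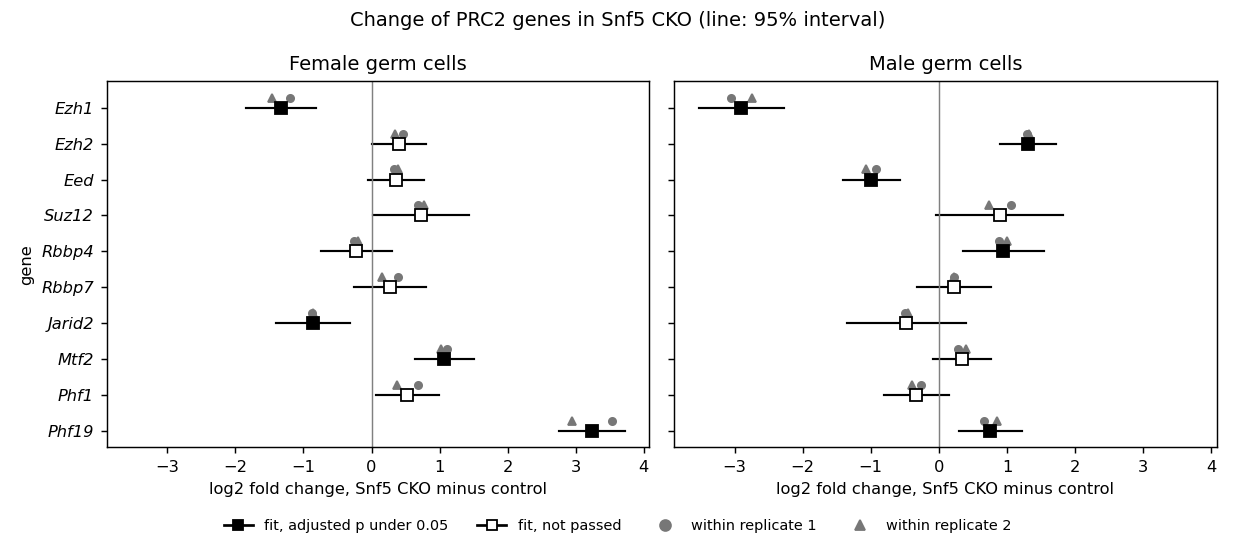
Log2 fold change of each PRC2 gene on the log2(FPKM + 1) scale, Snf5 CKO minus control, in females (left) and males (right), with squares for the fit (filled where the adjusted p was under 0.05), lines for its 95% interval, and grey circles and triangles for the difference within replicate 1 and within replicate 2. Both single-replicate differences had the same sign for all 10 genes in each sex, from -3.05 for Ezh1 in male replicate 1 to 3.53 for Phf19 in female replicate 1. Groups without overlap force the same sign, and 81.6% of all tested female genes and 74.5% of the male ones had such groups.

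Counted over the members, 2 of 10 were higher (Mtf2 and Phf19) and 2 were lower (Ezh1 and Jarid2) in female Snf5 CKO. Over all tested female genes 26.9% were higher and 34.6% were lower. In male Snf5 CKO 3 were higher (Ezh2, Rbbp4 and Phf19) and 2 were lower (Ezh1 and Eed), against 21.0% and 25.3% of all tested male genes. The share of members that passed, 4 of 10 and 5 of 10, was thus below or near that of all genes. A log2 fold change of at least 1 in size as well was found for 3 members in females (Ezh1, Mtf2 and Phf19) and 2 in males (Ezh1 and Ezh2), against 38.9% and 31.8% of all tested genes. The median log2 fold change of the members was 0.38 in females and 0.28 in males, and that of all tested genes was -0.13 and -0.07. In each sex 9 of 10 members had groups that did not overlap, as had 81.6% of all tested female genes and 74.5% of the male ones. In females 7 members had both Snf5 CKO libraries above both controls and 2 had both below, against 36.4% and 45.1% of all genes. In males the counts were 6 and 3, against 34.5% and 40.0%. With the replicate block 7 members were higher and 3 lower in females, where 34.1% and 42.6% of all genes were. In males 6 were higher and 3 lower under the block, against 35.1% and 41.2%.

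The members were also ordered by FPKM within each group. In female controls Rbbp7, Rbbp4, Jarid2 and Ezh2 led, in that order, without overlap between neighbours. Below them came Eed, Ezh1, Mtf2 and Suz12, each overlapping its neighbours, and Phf19 and Phf1 came last. In male controls Eed stood next after Rbbp7, at 113 ± 5.17 FPKM (SD, n = 2). It was followed by Ezh1, Mtf2, Rbbp4 and Jarid2, each overlapping its neighbours, and then by Ezh2 at 21.3 ± 0.560 FPKM. In Snf5 CKO of both sexes Rbbp7 and Rbbp4 led, Ezh1 stood below Suz12, and Phf1 stood below Ezh1. Phf19 came directly after Rbbp4 in female Snf5 CKO, where it overlapped Ezh2, and last in male Snf5 CKO. Levels in the 2 tables were normalized separately, so no level was tested between the sexes.

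**Figure D3:**
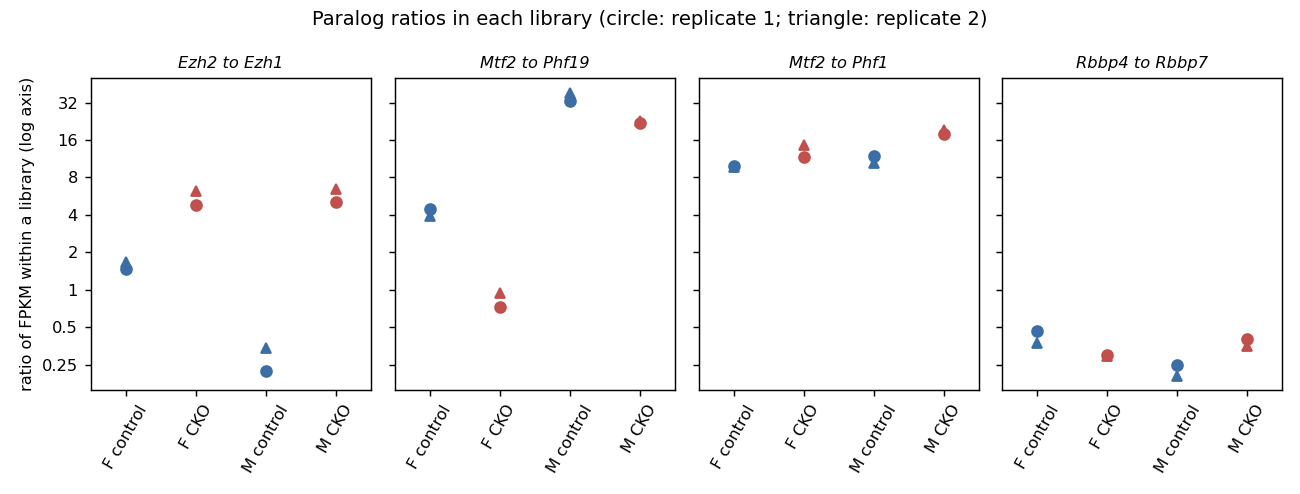
Ratio of the FPKM of paralogs within each library, on a log axis shared by the panels, for female (F) and male (M) control and Snf5 CKO germ cells. The Ezh2 to Ezh1 ratio ran from 0.224 to 1.66 in the control libraries and from 4.81 to 6.47 in the Snf5 CKO libraries.

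The remaining pairs of paralogs differed by less than 1 on the log2 scale. Mtf2 was at 9.81 and 9.75 times Phf1 in female controls and at 11.8 and 14.5 times in female Snf5 CKO, and at 11.8 and 10.5 times in male controls and 17.7 and 19.2 times in male Snf5 CKO. Rbbp4 was at 0.471 and 0.374 times Rbbp7 in female controls and at 0.300 and 0.293 times in female Snf5 CKO. The value of 0.300 rests on the failed estimate of Rbbp7, and the long Rbbp7 row limits this ratio in both sexes. In males the same ratio was 0.251 and 0.204 in control and 0.402 and 0.354 in Snf5 CKO, so it was lower than control in females and higher than control in males. The exact two-sided permutation p was 0.333 for each of the 8 ratio comparisons, 4 ratios in 2 sexes.

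Of the other genes that encode PRC2 accessory proteins, 1 of 5 was higher and 1 lower in females, and 1 was higher and 2 were lower in males. The shares of all tested genes were 26.9% higher and 34.6% lower in females, and 21.0% and 25.3% in males. Epop, whose protein joins the Polycomb-like form of the complex, was higher in both sexes, at 5.14 and 5.93 FPKM in female control and 27.3 and 30.1 FPKM in female Snf5 CKO cells (log2 fold change 2.19, adjusted p = 0.00017). Its male values were 2.69 and 3.44 FPKM in control and 13.0 and 13.0 FPKM in Snf5 CKO cells (log2 fold change 1.79, adjusted p = 0.0032). Ezhip encodes an inhibitor of PRC2 that is expressed in gonads. It was at 35.5 and 34.9 FPKM in male control and at 15.5 and 18.4 FPKM in male Snf5 CKO cells (log2 fold change -1.02, adjusted p = 0.0093), and its female log2 fold change was -0.40 (adjusted p = 0.081). Lcor was lower in males (log2 fold change -1.94, adjusted p = 0.0056) and had a log2 fold change of -0.02 in females. Lcorl was lower in females (log2 fold change -1.20, adjusted p = 0.0028) and had a log2 fold change of -0.45 in males (adjusted p = 0.20). Aebp2, the usual companion of JARID2, had log2 fold changes of 0.29 and 0.44 that did not pass.

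The list of H3K27 demethylase family genes held Kdm6a, Kdm6b and the Y-linked Uty, and no enzyme activity was measured. Kdm6a was lower in Snf5 CKO females, at 78.7 and 53.4 FPKM in control and 20.1 and 16.4 FPKM in Snf5 CKO cells (log2 fold change -1.78, adjusted p = 0.00082), and in males its log2 fold change was 0.35 (adjusted p = 0.47). Uty was at 11.3 and 8.05 FPKM in male control and at 5.48 and 4.07 FPKM in male Snf5 CKO cells (log2 fold change -0.88, adjusted p = 0.040), and is listed at 0 in all female libraries. The male call on Uty was lost under both rescalings of the libraries. Kdm6b did not pass in either sex, with log2 fold changes of 0.04 and 0.38.

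H3K36 methylation hinders PRC2, and 3 of its 5 listed methyltransferase genes were lower in Snf5 CKO females: Nsd3 (log2 fold change -1.69, adjusted p = 0.00061), Nsd1 (-1.20, adjusted p = 0.0047) and Ash1l (-0.81, adjusted p = 0.048). Of all tested female genes 34.6% were lower. Under each of the 2 rescalings (common sum and median of ratios) 2 of the 5 were lower. Nsd2 and Setd2 had log2 fold changes of -0.43 and 0.52 and did not pass. In males none of the 5 passed in the limma fit, at unadjusted p 2 of 5 were under 0.05 (Nsd1 and Setd2), and 3 passed with the replicate block. Without the block 46.3% of all tested male genes passed. Nsd1 had a male log2 fold change of -0.89 (adjusted p = 0.080) and Setd2 of 1.23 (adjusted p = 0.051). The male log2 fold changes of Nsd2, Nsd3 and Ash1l lay between -0.29 and 0.13.

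**Figure D4:**
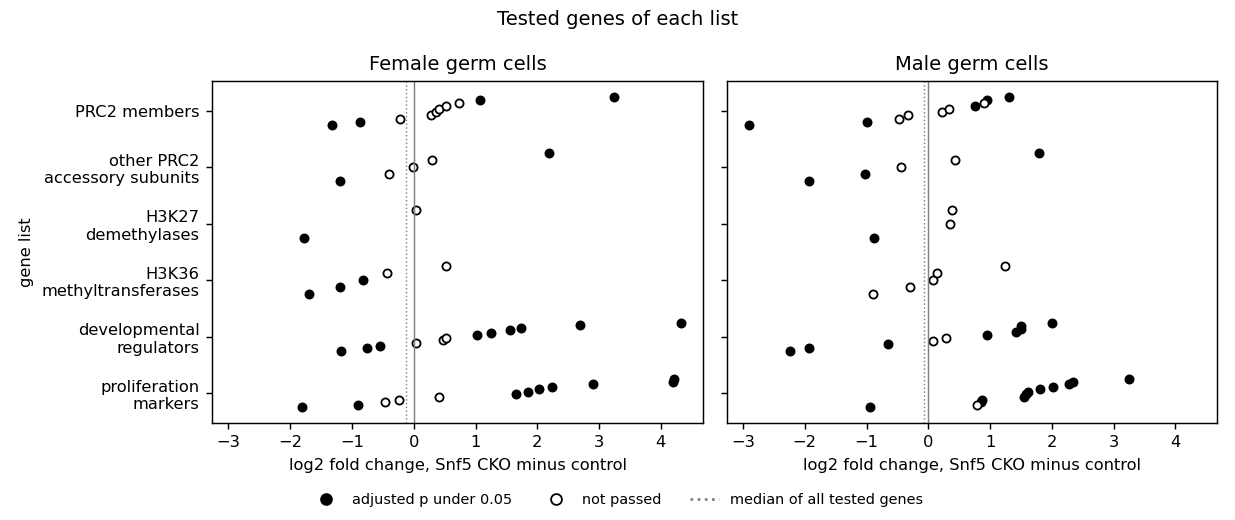
Log2 fold change, Snf5 CKO minus control, of every tested gene of the PRC2 members and of 5 lists around them, in females (left) and males (right), filled where the adjusted p was under 0.05, with a dotted line at the median of all tested genes (-0.13 and -0.07). The developmental regulators spread to both sides in each sex, from -1.18 to 4.32 in females and from -2.23 to 2.01 in males.

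Developmental regulators that are classically marked by H3K27 methylation in embryonic cells were mostly too low to test: 12 of 38 passed the filter in females and 10 of 38 in males. A gene high in 1 group alone can pass the filter through that group, so the counts describe the tested genes and not the list. In females 6 of these regulators were higher and 3 lower, where 26.9% and 34.6% of all tested genes were. Cdx2, a regulator of posterior and extraembryonic fate, had the largest female rise, from 3.38 and 3.64 FPKM in control to 102 and 77.4 FPKM in Snf5 CKO cells (log2 fold change 4.32, adjusted p = 9.7e-05). Next came Msx2 (log2 fold change 2.69), a target of BMP signalling, and the largest falls were those of Bmp2 (-1.18) and Lhx2 (-0.75). In males 5 were higher and 3 lower, with the largest rises for Evx1 (0.338 and 0.346 FPKM in control, rising to 4.61 and 4.18 FPKM) and Six2 (1.08 and 0.798 FPKM in control, rising to 5.03 and 3.98 FPKM) and a fall for Isl1 (log2 fold change -2.23). All 5 male genes called higher had a mean of under 1 FPKM in control and entered the test only through their level in Snf5 CKO, so the male count of rises is no more than a description. Of all tested male genes 21.0% were higher and 25.3% lower. Each gene named here had an adjusted p between 9.7e-05 and 0.014.

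Most genes of a list of cell division markers were higher in Snf5 CKO. Across all tested genes the share higher was 26.9% in females and 21.0% in males, and the share lower was 34.6% and 25.3%. Of 12 proliferation markers, 7 were higher and 2 lower in female Snf5 CKO, with the largest rises for Aurkb (log2 fold change 4.21) and Ccnb1 (13.6 and 11.7 FPKM in control, rising to 248 and 251 FPKM) and falls for Bub1 (-1.81) and Top2a (-0.90). In males 10 were higher and 1 lower, led by Rrm2 (3.25) and Plk1 (2.34), with a fall for Bub1 (-0.94). The summed FPKM of the 12 lay between 963 and 1031 in female control, 1476 and 1495 in female Snf5 CKO, 653 and 720.0 in male control and 1487 and 1605 in male Snf5 CKO. Their part in the changes of Ezh1, Ezh2 and the other members was not tested.

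Markers of other gonadal cells moved with the groups as well. Their counts stand beside 26.9% higher and 34.6% lower of all tested genes in females, and 21.0% and 25.3% in males. The summed FPKM of 8 Sertoli cell markers was 42.1 to 61.6 in male control and 270.3 to 312 in male Snf5 CKO, with all 8 higher, and 7.08 to 9.56 and 23.4 to 23.9 in females, where Sox9, Amh, Dhh and Cldn11 were too low to test. Of 8 pre-granulosa markers 7 were higher and 1 lower in females (sums of 11.7 to 14.7 FPKM in control against 28.2 to 31.2 FPKM in Snf5 CKO). In males these markers summed to 12.0 to 15.6 and 56.6 to 58.3 FPKM, and 3 of 4 tested were higher (Amhr2, Wt1 and Gata4, which are also in the Sertoli list), whereas Foxl2 was at most at 0.105 FPKM. In males the 5 Leydig markers summed to 58.2 to 85.7 FPKM in control and 15.1 to 19.2 FPKM in Snf5 CKO. There 3 of 5 were lower. In females they summed to 4.74 to 4.89 and 11.8 to 12.0 FPKM, with Cyp11a1 and Cyp17a1 near 0. Of the 2 tested in females, 1 was higher, the row of Insl3, which also carries Jak3. That row was at 3.13 and 3.99 FPKM in female control and 8.52 and 10.1 FPKM in female Snf5 CKO. In males it was at 35.9 and 32.7 FPKM in control and 10.3 and 10.1 FPKM in Snf5 CKO. The 6 stromal markers summed to 10.2 to 21.2 and 2.46 to 4.25 FPKM in males, with 3 of 4 tested lower, and to 6.00 to 12.9 and 3.94 to 4.81 FPKM in females. Endothelial and blood markers (8 found in females and 9 in males) summed to between 24.1 and 112 FPKM in all libraries. Ptprc was at most at 0.16 FPKM. In females 1 of 3 tested was higher, Pecam1, at 4.10 and 3.65 FPKM in control and 24.3 and 19.7 FPKM in Snf5 CKO. In males 1 of 6 tested was lower, Alas2, at 4.85 and 4.61 FPKM in control and 2.91 and 2.58 FPKM in Snf5 CKO. The 6 germ cell markers summed to 1262 to 1349 FPKM in female Snf5 CKO, 1815 to 1832 in female control, 1505 to 1667 in male Snf5 CKO and 2955 to 3084 in male control. In females 3 of them were higher (Dnd1, Sall4 and Nanos3) and 1 was lower (Mael), and in males 0 were higher and 4 lower, so the germ cell list itself moved with the groups. Per the study, the purities of the sorts overlapped between control and Snf5 CKO in each sex. The part of these other cells in the PRC2 values was not tested. In sorted bulk samples fewer cells of a type and less RNA per cell cannot be told apart.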

How the data were processed

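The authors isolated RNA from sorted germ cells, amplified cDNA with a SMART-Seq kit, and, per the labels, mapped and quantified reads with TopHat2 2.2.1 and Cuffdiff 2.1.1 on mm10; the text of the study names other versions. They deposited 1 table per sex with an FPKM value and a status for each locus and library. The gene annotation and the scaling of libraries are not given in the sources used here. Another 16 columns, with confidence bounds, were left aside. Table starts count from 0, and 1 was added.

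The libraries of a sex were fitted together on log2(FPKM + 1) in limma 3.58.1 (R 4.3.3), using eBayes with a mean trend. Named genes entered where their average over those 4 libraries reached 1 FPKM. A gene with several rows was represented by the row with the highest mean, and p-values were adjusted by Benjamini-Hochberg over all tested genes of the sex. A gene was called higher or lower at an adjusted p under 0.05. Fold changes on this scale understate those of low genes. All 10 members and Smarcb1 are named, each gene of a list of up to 5, and of longer lists the 2 largest rises and falls that passed; 1 gene that this rule names is not reported here, and single markers of other cells were named after their values were seen.

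The members and lists were chosen with earlier results of these data known. The study describes the replicates as biological duplicates. The labels of all replicate 1 libraries name 1 shared flow cell, so the replicate number was taken as a batch that pairs the libraries. Across genes, the offset between the replicates in control correlated with that in Snf5 CKO (0.500 for the female and 0.607 for the male table). The fit without the block is the one reported, since the study used none. With 2 against 2 libraries an exact permutation test cannot go below p = 0.333. GENCODE vM21 (GRCm38, the same build as mm10) gave gene spans and RefSeq the promoters. Figures were drawn with matplotlib 3.10.9.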

Additional observations from a re-analysis of the deposited data

Results flagged for a closer look

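Eed and Phf1 moved in opposite directions in the 2 sexes. Both Snf5 CKO libraries lay above both controls in females and below both controls in males for each gene. The log2 fold change of Eed was 0.36 in females and -0.99 in males, and that of Phf1 was 0.53 and -0.33. The difference between the sexes was not tested, because the tables were normalized separately, and only the male change of Eed passed the test within its sex.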

How the results depend on the processing

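None of the 20 fold changes of PRC2 members (10 genes in 2 sexes) turned its direction in 277 refitted values. A value is 1 gene in 1 setting, so each refit gave several. Of these values 247 kept their side of the threshold, 19 passed where the reported fit did not and 11 no longer passed. Tried were the unfiltered table, a pseudocount of 0.1, a minimum mean of 5 FPKM (which drops female Phf1 and male Phf19), a common sum over named genes, the median of ratios, no trend, the replicate block, summed rows, single gene names, status OK in all 4 libraries, and each library left out. Only the pseudocount, the 2 rescalings and the left-out libraries can alter the fold change of a member. The other settings leave it as it is, so they could not turn a direction and are no check of it. With the median of ratios 6 female members were higher (Ezh2, Eed, Suz12 and Phf1 in addition), and with a common sum 1 male member was higher. Over all genes, these rescalings move the median change on the log2 scale from -0.13 to -0.11 (common sum) and 0.02 (median of ratios) in females and from -0.07 to -0.24 and 0.07 in males. With the replicate block 7 female and 6 male members were higher, and the block changed no call on a member other than those given beside the gene above. Without the trend, and with single gene names, 3 female members were higher (Phf1 in addition). Of all tested male genes, 2580 were higher as reported, 4313 with the block, 1402 with a common sum and 1716 without control replicate 1. The count of lower ones was 3109 as reported, 5058 with the block and 2029 at a minimum mean of 5 FPKM. With each library left out, 2 to 3 members were higher and 1 to 2 lower in females, and 1 to 3 higher and 1 to 2 lower in males. A count of 1 came without female control replicate 1 or Snf5 CKO replicate 2 for lower members, without male Snf5 CKO replicate 1 or control replicate 2 for higher ones, and without male control replicate 2 for lower ones.

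Among the lists around PRC2, the replicate block gave 1 higher female H3K36 methyltransferase, 2 lower female accessory subunits and 4 lower female proliferation markers. In males it gave 2 higher demethylases, 1 higher and 2 lower H3K36 methyltransferases and 2 higher accessory subunits. With the median of ratios 1 H3K36 methyltransferase was higher in each sex, and 0 demethylases and 0 proliferation markers were lower in males. With a common sum 0 demethylases were lower in males. The Mtf2 to Phf19 difference in males was -0.42 on the log2 scale with 1 FPKM added to both genes, against -0.67 as reported, and the other ratios moved by less than the SD between replicates under added or summed values. With each library left out, the log2 difference of Ezh2 to Ezh1 ran from 1.62 to 1.99 in females and from 4.08 to 4.68 in males, that of Mtf2 to Phf19 from -2.52 to -2.14 and from -0.78 to -0.56, that of Mtf2 to Phf1 from 0.27 to 0.57 and from 0.64 to 0.82, and that of Rbbp4 to Rbbp7 from -0.67 to -0.33 and from 0.59 to 0.89. The cause of these shifts was not tested. Status OK could not be applied to Rbbp7 in females, which then left 9 members. Without counts, no limit from depth can be given for the low genes Phf1 and male Phf19.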
